A study of Mus musculus with 24 samples.

Results

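Lysosomal enzymes and membrane proteins were measured as transcripts through 40 genes, taken by name from a list. The list holds 12 cathepsins and other proteases, 11 glycosidases and sulfatases, 7 lipid hydrolases and soluble cofactors, and 10 membrane proteins. It was made, like the marker and pathway lists below, with earlier results of these data known. All 40 were found among the 22274 genes of the table, in 24 samples. The lysosome is the acidic organelle in which cells break down material taken up from outside and their own worn parts. Its soluble hydrolases cut proteins, sugar chains and lipids, and its membrane proteins protect the limiting membrane, pump protons and carry the products out. In brain tissue, phagocytic cells such as microglia and macrophages hold many lysosomes, and neurons depend on the same enzymes, as the inherited storage diseases show.

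RNA came from male C57BL/6J mice, sham-operated or with a pituitary stalk electrical lesion (PEL), with or without growth hormone (GH). The hypothalamus was sampled in Sham (labelled day 0), PEL_3d (day 3), PEL_10d (day 10), Sham GH (day 0), PEL_3d GH (day 3) and PEL_10d GH (day 10). The hippocampus was sampled in HIP Sham (day 0) and HIP PEL_10d (day 10), both without GH. Each of the 8 groups had 3 libraries, and the labels give no age. No source says that replicates are separate animals, so p-values measure the spread between samples. Total counts per library ran from 15095267 to 17973494, with a median of 15883699.

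Levels are given in FPKM (fragments scaled by transcript length and library size), in which genes can be compared, and tests were made on counts. A member is called higher or lower in a comparison where its p from edgeR, adjusted by the Benjamini-Hochberg method over all genes tested, is under 0.05. Errors on log2 fold changes are standard errors (SE). The lesion comparisons ask what changed 3 and 10 days after the lesion, each against the sham group of the same GH treatment. Comparisons at day 3 and day 10 share their sham libraries, so their values are given side by side and their overlap is not a result.

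The libraries were compared with their labels before any test. The library labelled Sham 1 summed to 10.3 FPKM over 12 hypothalamic marker genes, against 1411 and 1363 in Sham 2 and Sham 3. Over 10 hippocampal markers it summed to 272 FPKM, against 53.8 and 51.9, and over 8 choroid plexus markers to 14912 FPKM, against 30.7 and 31.3. Its profile did not have the hypothalamic markers that its label calls for. The library labelled HIP Sham 1 summed to 1180 FPKM over the hypothalamic markers, against 3.03 and 3.48 in HIP Sham 2 and HIP Sham 3, and to 49.7 FPKM over the hippocampal markers, against 392 and 331. It had hypothalamic markers in place of hippocampal ones. Over the choroid plexus markers it summed to 25.3 FPKM, against 4359 and 5457 in HIP Sham 2 and HIP Sham 3 and 138, 40.7 and 802 in HIP PEL_10d. HIP Sham 3 carries a tissue field that reads Hypothalamus, while its title and its markers are hippocampal.

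Levels of many members in both libraries lay outside those of their labelled tissue. Gaa, the acid alpha-glucosidase, stood at 95.0 FPKM in the library labelled Sham 1, against 357 and 350 in Sham 2 and Sham 3, and at 364 FPKM in the library labelled HIP Sham 1, against 77.3 and 82.8 in HIP Sham 2 and HIP Sham 3. Sham 1 lay above the range of the 5 other hypothalamic sham libraries for 21 members, below it for 11 and within it for 8. HIP Sham 1 lay above the range of the 5 other hippocampal libraries for 22 members, below it for 2 and within it for 16. Hypothalamic comparisons with Sham therefore use Sham 2 and Sham 3, and each is also given with all 3 libraries labelled Sham. Hippocampal comparisons use all 3 libraries as labelled, and each is also given without HIP Sham 1.

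In Sham 2 and Sham 3 the members' mean levels spanned 1 member under 1 FPKM, 9 from 1 to 10, 24 from 10 to 100, and 6 at 100 or more. The 6 most abundant were Psap at 574 FPKM, Gaa at 354, Lamp1 at 228, Ctsd at 208, Atp6ap1 at 178 and Ctsb at 130. The least abundant was Atp6v0d2, at 0.013 FPKM. Between tissues, the ratio of the mean of Sham 2 and Sham 3 to the mean of HIP Sham 2 and HIP Sham 3 was 4.42 for Gaa, a ratio that was not tested, and HIP Sham 2 and HIP Sham 3 held choroid plexus markers as well. Exons of Ctsd and Glb1 overlap those of Gm49369 and Tmppe on the same strand, with median counts of 30.5 and 138.5 for these neighbours. Exons of Ctsa, Ctsb, Ctsl, Ctsz, Hexa, Arsa, Arsb, Ppt1, Grn, Lamp1 and Npc1 overlap a gene on the opposite strand, and Ctsl also a pseudogene on its own. Counts of these members are uncertain to that extent, since the strand used in counting is not stated.

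At day 3 after the lesion, 34 of 40 members were higher than Sham and 1 was lower, where 22.2% of the 14905 genes tested were higher and 18.2% lower. The members' median log2 fold change was 1.36, against -0.01 over all genes tested. With all 3 libraries labelled Sham, 26 members were higher and 0 lower by edgeR, against backgrounds of 10.4% and 1.04%, and 32 members had an unadjusted p under 0.05. The calls lost with Sham 1 included were those of Psap, Lamp2, Npc1, Gaa, Ctsk, Scarb2, Ctsc, Tpp1 and Arsb. Without Sham 3 the counts were 31 higher and 1 lower, and the calls of Ctsk (adjusted p 0.0716), Manba (adjusted p 0.0559) and Scarb2 (adjusted p 0.0678) were lost, with log2 fold changes of 0.95, 0.49 and 0.26.

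At day 10 after the lesion, 27 of 40 members were higher than Sham, against 7.97% of the 14801 genes tested, and by edgeR 0 were lower, against 1.43%. By edgeR 36 members had an unadjusted p under 0.05, and DESeq2 gave 28 higher and 0 lower, with 32 at an unadjusted p under 0.05. The replicate block gave 28 higher and 1 lower. The median was 0.73, against -0.01 over all genes. Including the library labelled Sham 1 left 11 higher, against 1.81%, and 0 lower, against 0.0274%, with 25 members at an unadjusted p under 0.05. Those 11 were Galns, Cd68, Lgmn, Ctsb, Hexa, Gusb, Atp6v0d2, Laptm5, Ctsh, Grn and Ctss. The count also rested on the pair of Sham libraries, since without Sham 2 it was 11 and without Sham 3 it was 11. Without PEL_10d 3 it was 25, and the calls of Psap and Npc1 were lost, and without PEL_10d 2 it was 29. The share of all genes called in these fits with a library left out is not given.

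In mice given GH, 34 of 40 members were higher in PEL_3d GH than in Sham GH and 1 was lower, where 26.9% of the 14743 genes tested were higher and 25.2% lower. The median was 1.66, against -0.00 over all genes. At day 10 with GH, 31 were higher and 1 lower, where 17.7% of 14686 genes were higher and 13.3% lower, and the median was 0.98, against -0.01. These comparisons use none of the Sham libraries. At day 10 with GH, 28 members were higher and 0 lower by edgeR without PEL_10d GH 2, Sham GH 1 or Sham GH 2 in turn, with 32, 33 and 32 at an unadjusted p under 0.05, as the calls of Galns, Gaa, Scarb2 and Arsb were lost. Without Sham GH 3, 30 were higher and 1 lower, with Galns and Arsb lost, and without PEL_10d GH 3 the call of Galns was lost, leaving 31 higher and 1 lower. PEL_10d GH 3 stood apart from its group, with hypothalamic markers at 6678 FPKM, against 1211 and 1741 in PEL_10d GH 1 and PEL_10d GH 2, and pituitary markers at 74.1 FPKM, against 8.75 and 25.5. Without PEL_10d GH 1 the counts were 34 and 1, and at day 3 without PEL_3d GH 3 they were 34 and 2. The 5 members Smpd1, Arsa, Ctsf, Atp6ap1 and Mcoln1 passed the threshold in none of the 4 lesion comparisons. Their log2 fold changes at day 3 without GH ran from -0.02 for Mcoln1 to 0.10 for Smpd1. The share of all genes that passed in none of the 4 was not counted. Day 3 and day 10 share sham libraries, so this overlap is not a result.

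**Figure D1:**
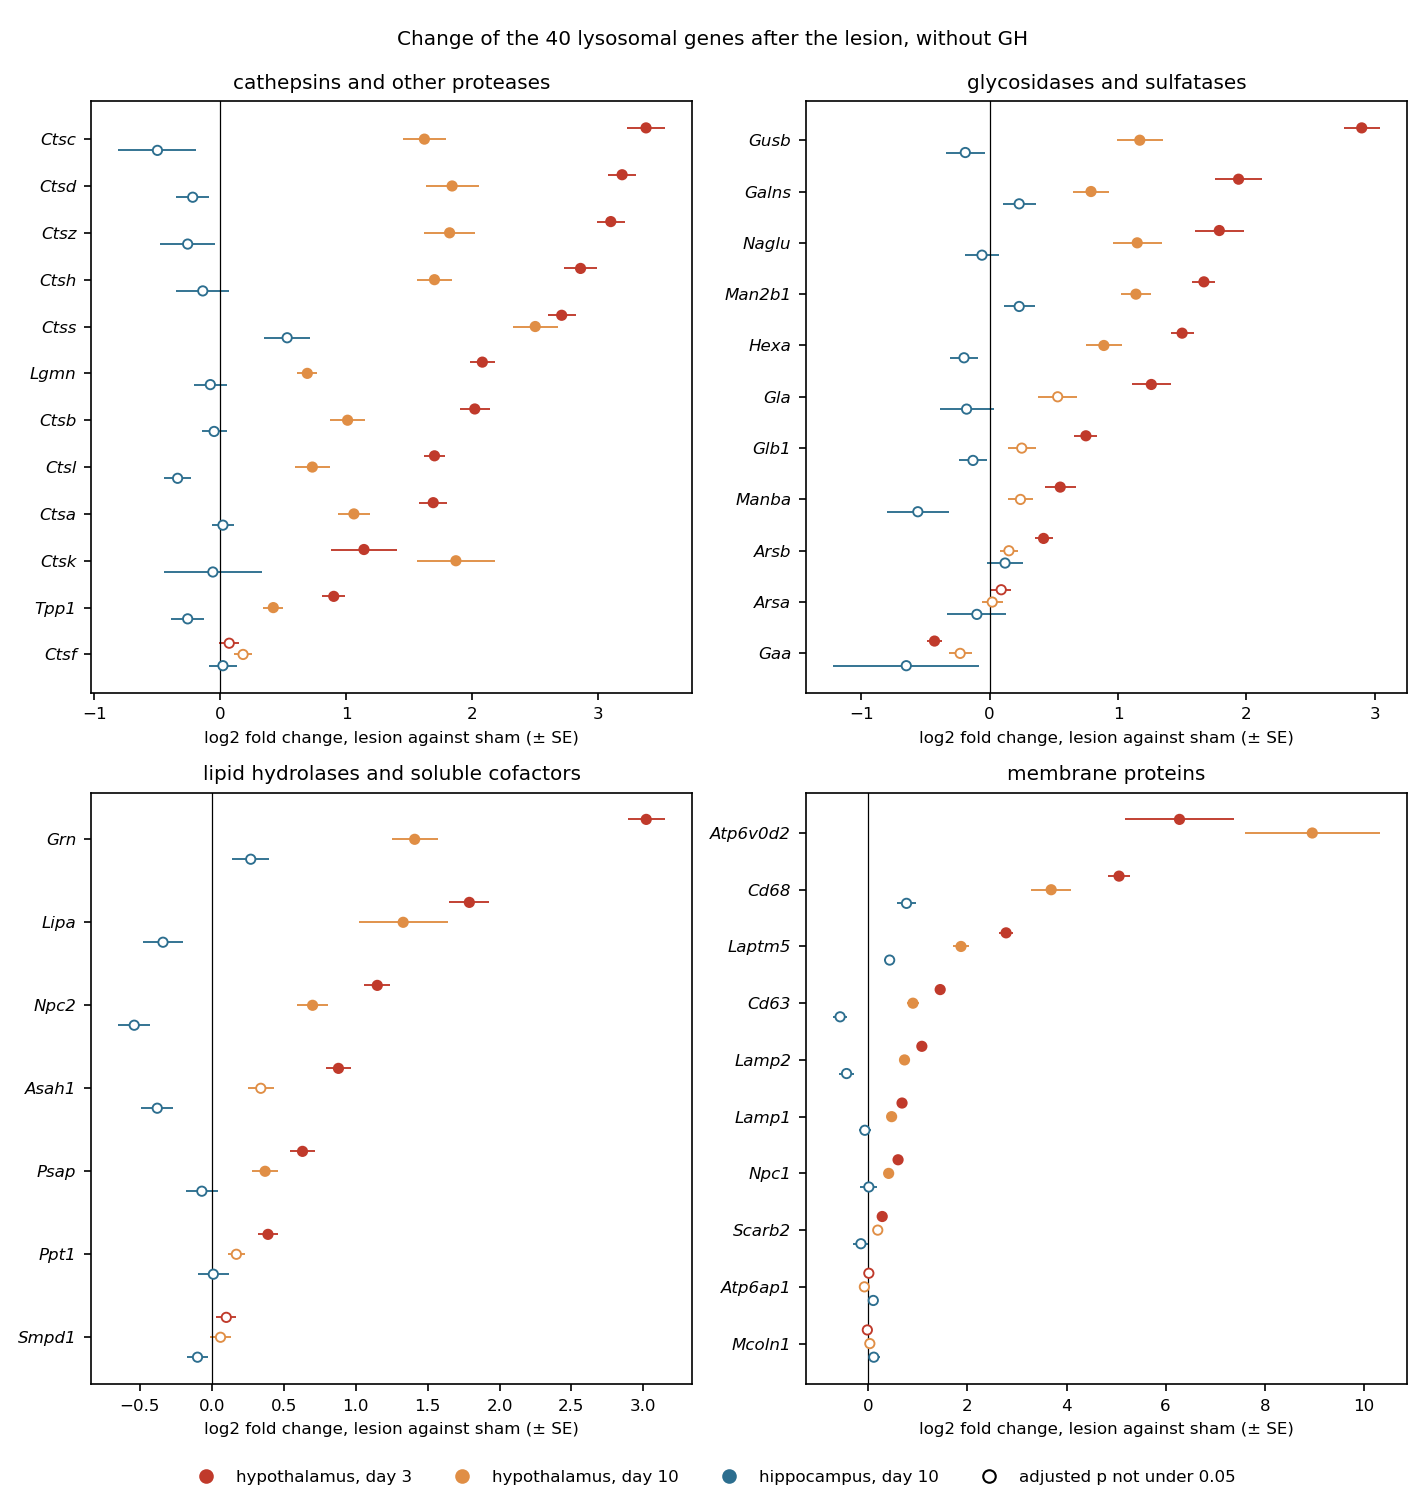
Log2 fold change ± SE of each member, by class, after the lesion without GH, in the hypothalamus at day 3 and day 10 (against Sham 2 and Sham 3) and in the hippocampus at day 10 (against all 3 libraries labelled HIP Sham). Filled points have an adjusted p under 0.05, which holds for 35, 27 and 0 members, and Atp6v0d2 was not tested in the hippocampus.

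Of the 12 proteases, 11 were higher at day 3 and 11 at day 10, with median log2 fold changes of 2.05 and 1.34, and with GH 11 and 11, with medians of 2.23 and 1.62. Their summed level was 652 and 669 FPKM in Sham 2 and Sham 3, 3843, 3382 and 4319 in PEL_3d and 2083, 1374 and 2017 in PEL_10d. With GH the sums were 649.8, 673 and 661 FPKM in Sham GH, 5638, 5596 and 4100.4 in PEL_3d GH and 1793, 2310.4 and 2526 in PEL_10d GH. In each series the 3 groups did not overlap, and day 10 lay between sham and day 3.

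Ctsd, the main aspartic protease of the lysosome (chr7:142375911-142388038, minus strand, build GRCm38), had the highest mean of the members over all 24 libraries. That mean was 916 FPKM, against 724 for Psap, while in Sham 2 and Sham 3 Psap was higher than Ctsd. Ctsd stood at 205 and 212 FPKM in Sham 2 and Sham 3, at 1966, 1654 and 2141 in PEL_3d and at 899.6, 511 and 862 in PEL_10d. With GH its levels were 214, 217 and 211 FPKM in Sham GH, 3091, 3089.8 and 2201 in PEL_3d GH and 746, 1046 and 1117 in PEL_10d GH. No group overlapped another within either series. The log2 fold change was 3.19 ± 0.11 at day 3 (adjusted p 4.26e-08) and 1.84 ± 0.21 at day 10 (adjusted p 0.00174), and with GH 3.68 ± 0.13 (adjusted p 9.41e-08) and 2.16 ± 0.13 (adjusted p 3.31e-06). Ctsc, a cysteine protease that activates serine proteases by trimming them (chr7:88278085-88310888, plus strand), went from 5.10 and 4.45 FPKM in Sham 2 and Sham 3 to 56.3, 46.9 and 64.1 in PEL_3d and 15.7, 12.4 and 18.6 in PEL_10d. In mice given GH it went from 3.65, 4.95 and 3.59 FPKM in Sham GH to 72.0, 61.6 and 38.2 in PEL_3d GH and 15.4, 22.4 and 16.8 in PEL_10d GH. Groups were again separate, but the library labelled Sham 1, at 19.1 FPKM, lay above all 3 PEL_10d libraries. Its changes were 3.38 ± 0.15 at day 3 (adjusted p 1.02e-07) and 1.62 ± 0.17 at day 10 (adjusted p 0.00136), and with GH 3.66 ± 0.21 (adjusted p 1.01e-06) and 2.13 ± 0.17 (adjusted p 1.78e-05), on the log2 scale. With Sham 1 included the day 3 change of Ctsc had an adjusted p of 0.0511.

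Ctsz, a carboxypeptidase of the cathepsin family, stood at 19.3 and 21.9 FPKM in Sham 2 and Sham 3, 171, 162 and 202 in PEL_3d and 95.1, 55.2 and 71.4 in PEL_10d. With GH it stood at 19.0, 20.9 and 20.2 FPKM in Sham GH, 247, 243 and 179.6 in PEL_3d GH and 80.3, 103 and 106 in PEL_10d GH. All lesion libraries lay above all sham libraries used, and those of day 3 above those of day 10. Log2 fold changes were 3.10 ± 0.11 and 1.82 ± 0.20 without GH (adjusted p 5.02e-08 and 0.00151) and 3.45 ± 0.13 and 2.25 ± 0.11 with GH (adjusted p 9.41e-08 and 8.86e-07). Lgmn, the asparaginyl endopeptidase that cuts other cathepsins into their mature forms, was at 71.9 and 76.4 FPKM in Sham 2 and Sham 3, 312, 283 and 355 in PEL_3d and 135, 112 and 118 in PEL_10d. Under GH its levels were 67.5, 73.0 and 76.8 FPKM in Sham GH, 360.4, 364 and 272 in PEL_3d GH and 128, 149.6 and 148 in PEL_10d GH. The groups were separate, and day 10 lay closer to sham than to day 3. Lgmn changed by 2.08 ± 0.10 at day 3 (adjusted p 1.57e-07) and 0.69 ± 0.08 at day 10 (adjusted p 0.00194), and with GH by 2.17 ± 0.12 (adjusted p 5.85e-07) and 0.95 ± 0.08 (adjusted p 2.12e-05). Its day 10 call without GH was lost without Sham 2 (log2 0.65 ± 0.12, adjusted p 0.0521).

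Ctss and Ctsk were not called between day 3 and day 10 in either series. Ctss, a cysteine protease of antigen-presenting cells that works at neutral pH as well, was at 48.3 and 48.6 FPKM in Sham 2 and Sham 3, 291, 303 and 371 in PEL_3d and 283, 211 and 338 in PEL_10d. With GH it was at 35.8, 47.1 and 44.0 FPKM in Sham GH, 451, 426 and 331 in PEL_3d GH and 277, 315 and 395 in PEL_10d GH. Day 3 and day 10 overlapped in both series, and both lay clear of sham. Its log2 fold changes were 2.71 ± 0.11 at day 3 (adjusted p 9.04e-08) and 2.50 ± 0.18 at day 10 (adjusted p 2.33e-04), and with GH 3.23 ± 0.14 (adjusted p 2.17e-07) and 2.94 ± 0.14 (adjusted p 8.86e-07). Ctsk, a collagen-cutting cathepsin best known from osteoclasts, was at 1.93 and 1.48 FPKM in Sham 2 and Sham 3, 3.69, 3.08 and 4.65 in PEL_3d and 8.08, 4.21 and 6.83 in PEL_10d. With GH, Ctsk was at 1.61, 1.78 and 1.60 FPKM in Sham GH, 4.88, 6.40 and 3.52 in PEL_3d GH and 4.44, 6.64 and 9.30 in PEL_10d GH. Its levels were low, day 3 and day 10 overlapped in both series, and all lesion libraries lay above the sham libraries used. Changes of Ctsk were 1.14 ± 0.26 at day 3 (adjusted p 0.00609) and 1.87 ± 0.31 at day 10 (adjusted p 0.00735), and with GH 1.54 ± 0.24 (adjusted p 4.78e-04) and 2.01 ± 0.26 (adjusted p 3.94e-04). Without Sham 3 the calls of Ctsk were lost at day 3 (log2 0.95 ± 0.33, adjusted p 0.0716) and day 10 (log2 1.69 ± 0.41, adjusted p 0.0932), and without Sham 2 the day 10 call was lost (log2 2.08 ± 0.43, adjusted p 0.0755).

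Among the other proteases, the aminopeptidase Ctsh rose by 2.86 ± 0.13 on the log2 scale at day 3 (adjusted p 1.07e-07) and 1.70 ± 0.14 at day 10 (adjusted p 3.87e-04). The endopeptidases Ctsb and Ctsl rose by 2.02 and 1.70 at day 3 and by 1.01 and 0.73 at day 10. Ctsa, a carboxypeptidase that also shields a sialidase and beta-galactosidase, rose by 1.69 and 1.06, and Tpp1, a tripeptidyl peptidase, by 0.90 and 0.42. All 3 libraries of each lesion group lay above Sham 2 and Sham 3 for these 5 genes. The day 10 calls of Ctsb (adjusted p 0.0778 and 0.0646), Ctsl (adjusted p 0.155 and 0.113) and Tpp1 (adjusted p 0.145 and 0.136) were lost without Sham 2 and without Sham 3, respectively. Ctsf was the protease that was not called, at 0.07 ± 0.08 (adjusted p 0.529) and 0.18 ± 0.07 (adjusted p 0.187).

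Of the 11 glycosidases and sulfatases, 9 were higher and 1 lower at day 3, with a median of 1.26, and 5 were higher at day 10, with a median of 0.53. With GH, 9 were higher and 1 lower at day 3 (median 1.58), and 7 higher and 1 lower at day 10 (median 0.43). Summed over the class, levels were 493 and 491 FPKM in Sham 2 and Sham 3, 619, 559 and 618 in PEL_3d and 569, 507 and 481 in PEL_10d. In the GH series the sums were 499, 503 and 466 FPKM in Sham GH, 639, 661 and 625 in PEL_3d GH and 555, 542 and 545 in PEL_10d GH. The class sum moved less than that of the proteases, and PEL_10d overlapped Sham. Gaa made up most of the sum in sham. Gaa, which frees glucose from glycogen (chr11:119267887-119285454, plus strand), stood at 357 and 350.5 FPKM in Sham 2 and Sham 3, 275, 263 and 259 in PEL_3d and 331, 322 and 267 in PEL_10d. With GH it stood at 371, 372 and 335 FPKM in Sham GH, 213, 234 and 285 in PEL_3d GH and 337, 289 and 282 in PEL_10d GH. All day 3 libraries lay below their sham libraries, day 3 and day 10 overlapped in both series, and with GH day 10 also overlapped sham. Gaa fell at day 3 (-0.43 ± 0.06, adjusted p 3.52e-04) and was not called at day 10 (-0.23 ± 0.09, adjusted p 0.171), and with GH it fell at day 3 (-0.59 ± 0.10, adjusted p 8.32e-04) and day 10 (-0.28 ± 0.07, adjusted p 0.017). The day 10 call with GH was lost without PEL_10d GH 2 (log2 -0.25 ± 0.09, adjusted p 0.0665), without Sham GH 1 (log2 -0.26 ± 0.09, adjusted p 0.0788) and without Sham GH 2 (log2 -0.25 ± 0.09, adjusted p 0.0734). With the library labelled Sham 1 included, Gaa was not called at day 3.

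Gusb, the beta-glucuronidase (chr5:129989011-130003049, minus strand), had the largest change of the class at day 3. Its levels were 8.99 and 9.95 FPKM in Sham 2 and Sham 3, 64.7, 49.8 and 64.8 in PEL_3d and 22.3, 15.7 and 20.5 in PEL_10d. With GH they were 8.59, 8.84 and 9.52 FPKM in Sham GH, 80.7, 80.4 and 55.3 in PEL_3d GH and 20.9, 24.3 and 29.4 in PEL_10d GH. The groups of each series were separate, in the order sham, day 10, day 3. Gusb rose by 2.90 ± 0.14 at day 3 (adjusted p 1.51e-07) and 1.17 ± 0.18 at day 10 (adjusted p 0.00501), and with GH by 3.25 ± 0.15 (adjusted p 3.23e-07) and 1.65 ± 0.13 (adjusted p 1.53e-05). Its day 10 call was lost without Sham 2 (log2 1.07 ± 0.24, adjusted p 0.0926) and without Sham 3 (log2 1.28 ± 0.24, adjusted p 0.0511). Galns, a sulfatase of keratan sulfate, was at 2.91 and 3.29 FPKM in Sham 2 and Sham 3, 12.7, 9.69 and 14.3 in PEL_3d and 6.04, 5.43 and 5.33 in PEL_10d. In the GH series Galns was at 4.54, 4.41 and 4.55 FPKM in Sham GH, 15.6, 17.2 and 11.3 in PEL_3d GH and 5.25, 5.77 and 6.53 in PEL_10d GH. Its groups were separate, and Sham GH lay above Sham 2 and Sham 3. The changes were 1.94 ± 0.18 (adjusted p 1.51e-05) and 0.79 ± 0.14 (adjusted p 0.0106) without GH, and 1.73 ± 0.15 (adjusted p 1.23e-05) and 0.40 ± 0.11 (adjusted p 0.0225) with GH, at day 3 and day 10. The day 10 call of Galns was lost without Sham 2 (log2 0.70 ± 0.18, adjusted p 0.13) and without Sham 3 (log2 0.89 ± 0.19, adjusted p 0.0646). With GH it was lost without PEL_10d GH 2 (adjusted p 0.0567), PEL_10d GH 3 (adjusted p 0.0888), Sham GH 1 (adjusted p 0.0664), Sham GH 2 (adjusted p 0.0722) or Sham GH 3 (adjusted p 0.0533), at log2 fold changes of 0.41, 0.32, 0.41, 0.39 and 0.42.

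Naglu, which removes N-acetylglucosamine from heparan sulfate, was at 3.18 and 3.68 FPKM in Sham 2 and Sham 3, 12.5, 9.14 and 14.4 in PEL_3d and 9.30, 6.02 and 7.84 in PEL_10d. With GH, Naglu was at 3.04, 3.45 and 3.29 FPKM in Sham GH, 14.9, 16.4 and 12.7 in PEL_3d GH and 7.09, 9.35 and 9.11 in PEL_10d GH. Day 3 and day 10 overlapped without GH, and both lay above sham. Naglu rose by 1.79 ± 0.19 at day 3 (adjusted p 4.23e-05) and 1.15 ± 0.19 at day 10 (adjusted p 0.00736), and with GH by 2.14 ± 0.12 (adjusted p 9.21e-07) and 1.36 ± 0.13 (adjusted p 6.32e-05). Man2b1, an alpha-mannosidase of glycoprotein sugar chains, was at 8.71 and 9.45 FPKM in Sham 2 and Sham 3, 29.6, 26.5 and 30.5 in PEL_3d and 22.8, 17.4 and 20.5 in PEL_10d. Under GH, Man2b1 was at 9.70, 10.4 and 8.41 FPKM in Sham GH, 33.4, 38.2 and 29.7 in PEL_3d GH and 24.9, 29.4 and 26.1 in PEL_10d GH. The groups were separate, though with GH the lowest day 3 library lay just above the highest day 10 library. Its changes were 1.67 ± 0.09 and 1.14 ± 0.12 without GH (adjusted p 3.63e-07 and 0.00125) and 1.82 ± 0.10 and 1.5 ± 0.08 with GH (adjusted p 6.16e-07 and 2.15e-06). Without GH, the day 10 call of Naglu was lost without Sham 2 (log2 1.05 ± 0.25, adjusted p 0.11) and without Sham 3 (log2 1.24 ± 0.26, adjusted p 0.0646).

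Hexa, the alpha subunit of beta-hexosaminidase, was at 39.5 and 38.5 FPKM in Sham 2 and Sham 3, 116, 98.9 and 122 in PEL_3d and 85.1, 58.7 and 76.4 in PEL_10d. With GH, Hexa was at 30.9, 32.1 and 31.2 FPKM in Sham GH, 162, 157 and 126 in PEL_3d GH and 75.2, 92.7 and 102 in PEL_10d GH. Groups were separate within each series, and the 3 Sham GH libraries lay below both Sham libraries. It rose by 1.5 ± 0.09 at day 3 (adjusted p 9.83e-07) and 0.89 ± 0.14 at day 10 (adjusted p 0.00529), and with GH by 2.22 ± 0.10 (adjusted p 2.34e-07) and 1.49 ± 0.10 (adjusted p 5.45e-06). Its day 10 call without GH was lost without Sham 2 (log2 0.92 ± 0.19, adjusted p 0.0803) and without Sham 3 (log2 0.86 ± 0.19, adjusted p 0.0768). Gla, the alpha-galactosidase, was at 5.03 and 4.21 FPKM in Sham 2 and Sham 3, 11.7, 9.91 and 13.2 in PEL_3d and 6.85, 5.71 and 7.73 in PEL_10d. In the GH series Gla was at 4.84, 3.88 and 5.10 FPKM in Sham GH, 18.4, 14.3 and 11.4 in PEL_3d GH and 4.46, 6.69 and 11.0 in PEL_10d GH. Day 3 lay above sham in both series, and with GH day 10 overlapped sham. Gla rose at day 3 (1.26 ± 0.15, adjusted p 9.07e-05) and was not called at day 10 (0.53 ± 0.15, adjusted p 0.0683), and likewise with GH (1.58 ± 0.15, adjusted p 2.02e-05, and 0.46 ± 0.20, adjusted p 0.108). The beta-galactosidase Glb1, the beta-mannosidase Manba and the sulfatase Arsb were higher at day 3, by 0.75, 0.55 and 0.42, and not called at day 10, at 0.25, 0.24 and 0.15. Without Sham 3 the day 3 call of Manba was lost (log2 0.49 ± 0.16, adjusted p 0.0559). Arsa, a sulfatase of sulfatide, was not called at day 3 (0.09, adjusted p 0.411) or day 10 (0.02, adjusted p 0.931).

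**Figure D2:**
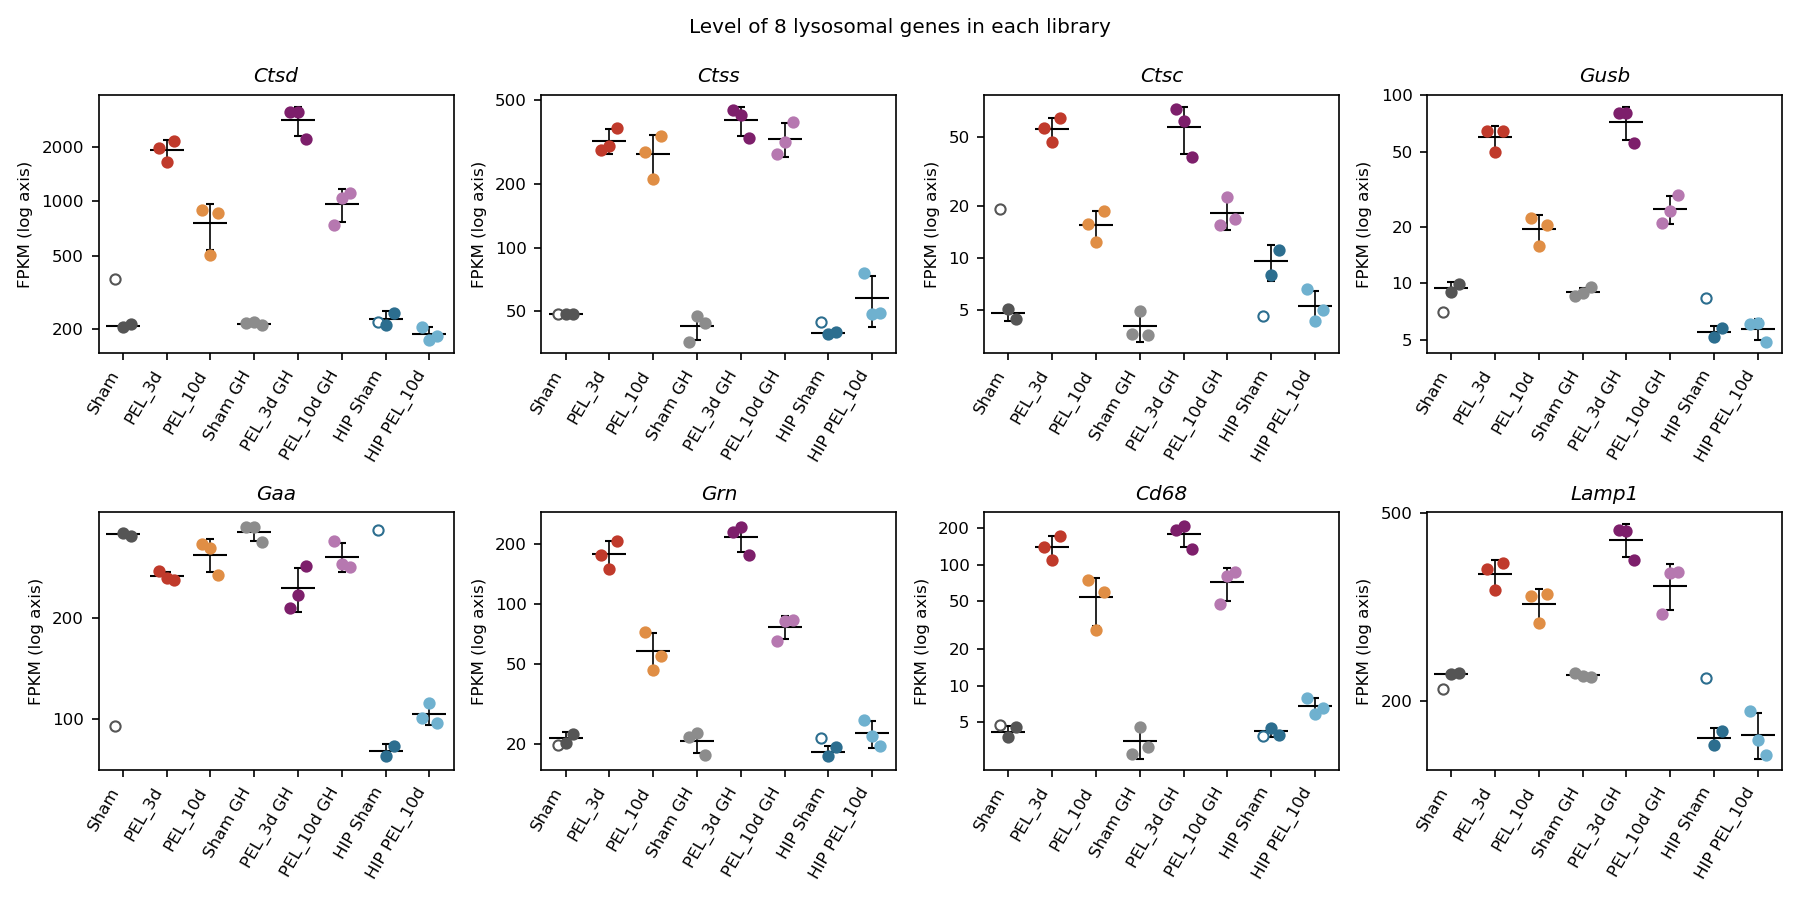
FPKM on a log axis of Ctsd, Ctss, Ctsc, Gusb, Gaa, Grn, Cd68 and Lamp1 in each library of the 8 groups, with bars for mean ± SD. Open points are the libraries labelled Sham 1 and HIP Sham 1, which the bars leave out, and Gaa in these stands at 95.0 and 364 FPKM.

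Of the 7 lipid hydrolases and soluble cofactors, 6 were higher at day 3 (median 0.88) and 4 at day 10 (median 0.37), and with GH 6 (median 1.02) and 5 (median 0.46). Their sum was 762 and 776 FPKM in Sham 2 and Sham 3, 1372, 1227 and 1495 in PEL_3d and 1099, 911 and 1099 in PEL_10d. With GH it was 749, 758 and 774 FPKM in Sham GH, 1762, 1747 and 1431 in PEL_3d GH and 998, 1085 and 1245 in PEL_10d GH. The groups did not overlap within a series. Psap, the precursor of the saposins that present lipids to hydrolases, was the most abundant of the class, at 568 and 580.0 FPKM in Sham 2 and Sham 3, 920.0, 808 and 983 in PEL_3d and 791, 658 and 804 in PEL_10d. With GH, Psap was at 557, 559 and 579 FPKM in Sham GH, 1191, 1166 and 969.5 in PEL_3d GH and 718, 762 and 899 in PEL_10d GH. The groups were separate, though the lowest day 3 library and the highest day 10 library without GH nearly met. Psap rose by 0.63 ± 0.09 at day 3 (adjusted p 2.27e-04) and 0.37 ± 0.09 at day 10 (adjusted p 0.0396), and with GH by 0.95 ± 0.09 (adjusted p 1.77e-05) and 0.46 ± 0.08 (adjusted p 0.00203). Its day 10 call without GH was lost without PEL_10d 1 (adjusted p 0.0533), PEL_10d 3 (adjusted p 0.0861), Sham 2 (adjusted p 0.294) or Sham 3 (adjusted p 0.231), at log2 fold changes of 0.33, 0.31, 0.36 and 0.37.

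Grn, the precursor of granulins, a secreted protein taken up into lysosomes (chr11:102430315-102437048, plus strand), had the largest change of the class. It was at 20.2 and 22.5 FPKM in Sham 2 and Sham 3, 176, 149 and 207 in PEL_3d and 72.5, 46.6 and 55.3 in PEL_10d. With GH, Grn was at 21.8, 22.6 and 17.7 FPKM in Sham GH, 229, 243 and 176 in PEL_3d GH and 65.4, 82.4 and 82.8 in PEL_10d GH. The groups were separate in the order sham, day 10, day 3. Grn rose by 3.02 ± 0.13 at day 3 (adjusted p 1.10e-07) and 1.41 ± 0.16 at day 10 (adjusted p 0.00151), and with GH by 3.35 ± 0.13 (adjusted p 1.60e-07) and 1.86 ± 0.11 (adjusted p 3.45e-06). Lipa, the acid lipase that frees cholesterol from its esters, was at 10.4 and 10.7 FPKM in Sham 2 and Sham 3, 36.1, 30.4 and 44.0 in PEL_3d and 28.0, 15.3 and 37.4 in PEL_10d. Under GH, Lipa was at 10.5, 11.5 and 10.4 FPKM in Sham GH, 60.2, 62.4 and 41.0 in PEL_3d GH and 17.8, 24 and 36.7 in PEL_10d GH. Day 3 and day 10 overlapped without GH, where PEL_10d 2 stood well below the other PEL_10d libraries. Its changes were 1.79 ± 0.14 (adjusted p 4.85e-06) and 1.33 ± 0.31 (adjusted p 0.0296) without GH and 2.31 ± 0.15 (adjusted p 1.68e-06) and 1.25 ± 0.21 (adjusted p 0.00174) with GH. The day 10 call without GH was lost without Sham 2 (log2 1.32 ± 0.44, adjusted p 0.23) and without Sham 3 (log2 1.34 ± 0.44, adjusted p 0.188).

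Npc2, which hands cholesterol to the membrane protein Npc1, was at 26.4 and 28.4 FPKM in Sham 2 and Sham 3, 58.2, 57.4 and 68.9 in PEL_3d and 50.8, 38.7 and 45.8 in PEL_10d. With GH, Npc2 was at 23.0, 24.4 and 24.6 FPKM in Sham GH, 81.7, 72.8 and 61.8 in PEL_3d GH and 47.6, 54.5 and 62.2 in PEL_10d GH. Day 3 and day 10 overlapped with GH, and all lesion libraries lay above sham. Npc2 rose by 1.15 ± 0.09 at day 3 (adjusted p 5.96e-06) and 0.70 ± 0.11 at day 10 (adjusted p 0.00529), and with GH by 1.56 ± 0.10 (adjusted p 1.44e-06) and 1.17 ± 0.09 (adjusted p 1.44e-05). Asah1, the acid ceramidase, was at 31.0 and 28.6 FPKM in Sham 2 and Sham 3, 55.2, 54.7 and 61.8 in PEL_3d and 37.1, 36.1 and 43.8 in PEL_10d. In the GH series Asah1 was at 29.7, 30.2 and 30.5 FPKM in Sham GH, 63.5, 67.1 and 51.5 in PEL_3d GH and 33.3, 43.8 and 45.7 in PEL_10d GH. The groups were separate, in the order sham, day 10, day 3. Asah1 rose at day 3 (0.88 ± 0.09, adjusted p 3.64e-05) and was not called at day 10 (0.34 ± 0.09, adjusted p 0.0553), and with GH it rose at both days (1.02 ± 0.09, adjusted p 1.46e-05, and 0.46 ± 0.11, adjusted p 0.00925). The thioesterase Ppt1 was higher at day 3 (0.39, adjusted p 0.00109) and not called at day 10 (0.17, adjusted p 0.126), and the acid sphingomyelinase Smpd1 was called at neither (0.10 and 0.06, adjusted p 0.257 and 0.635). The day 10 call of Npc2 without GH was lost without Sham 2 (log2 0.65 ± 0.15, adjusted p 0.0953) and without Sham 3 (log2 0.74 ± 0.15, adjusted p 0.0586).

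Of the 10 membrane proteins, 8 were higher at day 3 (median 0.88) and 7 at day 10 (median 0.60), and with GH 8 at each day (medians 1.07 and 0.66). Summed levels were 637 and 644 FPKM in Sham 2 and Sham 3, 1215, 1127 and 1301 in PEL_3d and 1002, 829 and 968 in PEL_10d. With GH the class summed to 637, 623 and 630.0 FPKM in Sham GH, 1502, 1505 and 1244 in PEL_3d GH and 895, 1075 and 1099 in PEL_10d GH. The groups did not overlap within a series. Lamp1, a heavily glycosylated protein that lines the inner face of the membrane (chr8:13159161-13175338, plus strand), was the most abundant, at 228 and 228 FPKM in Sham 2 and Sham 3, 379.9, 343 and 392 in PEL_3d and 334, 293 and 337 in PEL_10d. With GH, Lamp1 was at 229, 226 and 225 FPKM in Sham GH, 461, 458 and 398 in PEL_3d GH and 305, 373 and 375 in PEL_10d GH. Its groups were separate, with narrow gaps between day 3 and day 10. Lamp1 rose by 0.68 ± 0.07 at day 3 (adjusted p 4.39e-05) and 0.47 ± 0.08 at day 10 (adjusted p 0.00716), and with GH by 0.93 ± 0.07 (adjusted p 6.28e-06) and 0.61 ± 0.08 (adjusted p 4.71e-04). Its day 10 call without GH was lost without Sham 2 (log2 0.48 ± 0.12, adjusted p 0.11) and without Sham 3 (log2 0.46 ± 0.12, adjusted p 0.0986).

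Cd68, a macrophage relative of Lamp1 (chr11:69664213-69666153, minus strand), was low in sham, at 3.77 and 4.54 FPKM in Sham 2 and Sham 3, and stood at 139.6, 108 and 173 in PEL_3d and 75.0, 29.1 and 59.7 in PEL_10d. With GH, Cd68 was at 2.75, 4.61 and 3.12 FPKM in Sham GH, 192, 210.1 and 136 in PEL_3d GH and 47.1, 80.9 and 87.5 in PEL_10d GH. Every lesion library lay above every sham library used, and day 3 above day 10. Cd68 rose by 5.06 ± 0.22 at day 3 (adjusted p 1.04e-07) and 3.69 ± 0.40 at day 10 (adjusted p 0.00151), and with GH by 5.64 ± 0.21 (adjusted p 1.21e-07) and 4.33 ± 0.27 (adjusted p 3.71e-06). Laptm5, a transmembrane protein of blood-lineage cells, was at 9.74 and 11.2 FPKM in Sham 2 and Sham 3, 78.1, 69.6 and 97.8 in PEL_3d and 46.6, 32.6 and 44.6 in PEL_10d. In mice given GH, Laptm5 was at 10.5, 11.0 and 10.3 FPKM in Sham GH, 101, 105 and 82.0 in PEL_3d GH and 54.2, 58.1 and 53.4 in PEL_10d GH. The groups of each series were separate. Its changes were 2.78 ± 0.14 (adjusted p 2.83e-07) and 1.87 ± 0.17 (adjusted p 6.43e-04) without GH and 3.16 ± 0.11 (adjusted p 9.41e-08) and 2.42 ± 0.07 (adjusted p 1.56e-07) with GH. Cd63, a tetraspanin of late endosomes and lysosomes, was at 83.7 and 86.7 FPKM in Sham 2 and Sham 3, 235, 218 and 239.7 in PEL_3d and 184, 134 and 156 in PEL_10d. In the GH series Cd63 was at 85.8, 72.7 and 79.5 FPKM in Sham GH, 319, 306 and 237 in PEL_3d GH and 141, 197 and 202 in PEL_10d GH. Its groups were separate too. Cd63 rose by 1.45 ± 0.07 (adjusted p 1.85e-07) and 0.90 ± 0.12 (adjusted p 0.00309), and with GH by 1.84 ± 0.11 (adjusted p 9.59e-07) and 1.18 ± 0.13 (adjusted p 1.15e-04). For Cd63, the day 10 call without GH was lost without Sham 2 (log2 0.91 ± 0.17, adjusted p 0.0606) and without Sham 3 (log2 0.89 ± 0.17, adjusted p 0.0525).

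Atp6v0d2, an isoform of the d subunit of the proton pump that is known from osteoclasts and macrophages (chr4:19876841-19922605, minus strand), was all but unread in sham. Its counts were 1 and 0 in Sham 2 and Sham 3, 51, 16 and 86 in PEL_3d and 411, 88 and 467 in PEL_10d. With GH they were 0, 0 and 1 in Sham GH, 350, 379 and 156 in PEL_3d GH and 88, 250 and 671 in PEL_10d GH. All lesion libraries were above all sham libraries, day 3 and day 10 overlapped in FPKM in both series, and the libraries of each lesion group differed widely. Against a reference total of 1 count, the ratio to Sham was 97.7 at day 3 (95% exact counting interval 17.3 to 3882) and 619 at day 10 (111 to 24493). With GH it was 875 at day 3 (157 to 34615) and 992 at day 10 (178 to 39219). Adjusted p-values were 0.00135 and 0.00529 without GH and 6.70e-06 and 4.12e-04 with GH, and the day 10 call without GH was lost without Sham 2 (adjusted p 0.0898) and without Sham 3 (adjusted p 0.0805). The common isoform of this subunit, Atp6v0d1, was at 103 and 106 FPKM in Sham 2 and Sham 3, 102, 105 and 102 in PEL_3d and 107, 109 and 96.9 in PEL_10d, and the groups overlapped. Its log2 fold changes were -0.04 ± 0.06 at day 3 (adjusted p 0.68) and -0.03 ± 0.07 at day 10 (adjusted p 0.865).

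Among the other membrane proteins, Lamp2, which also takes part in chaperone-mediated autophagy, rose by 1.08 at day 3 and 0.73 at day 10, and the cholesterol exporter Npc1 by 0.60 and 0.41. Scarb2, the sorting receptor of glucocerebrosidase, rose by 0.28 at day 3 (adjusted p 0.00551) and was not called at day 10 (0.19, adjusted p 0.135). Without Sham 3 the calls of Scarb2 at day 3 (log2 0.26 ± 0.09, adjusted p 0.0678), of Lamp2 at day 10 (log2 0.61 ± 0.13, adjusted p 0.0717) and of Npc1 at day 10 (log2 0.48 ± 0.14, adjusted p 0.14) were lost. The day 10 call of Npc1 was also lost without Sham 2 (adjusted p 0.324, log2 0.34) and without PEL_10d 3 (adjusted p 0.0567, log2 0.31). Atp6ap1, an accessory subunit of the proton pump, and the ion channel Mcoln1 were not called, at 0.01 ± 0.06 and -0.02 ± 0.09 at day 3 (adjusted p 0.878 and 0.869).

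**Figure D3:**
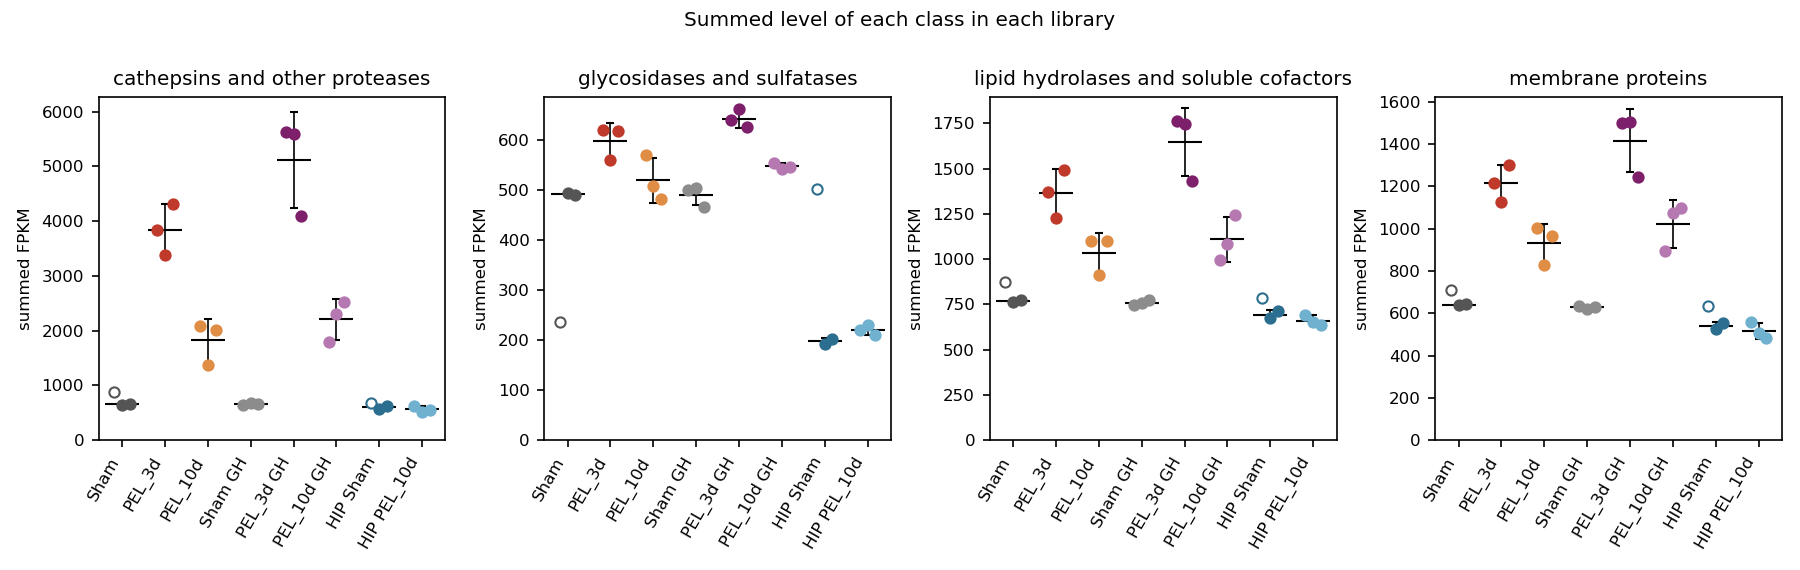
Summed FPKM of the members of each class in each library of the 8 groups, with bars for mean ± SD. Open points are the libraries labelled Sham 1 and HIP Sham 1, which the bars leave out. The sum over all 40 members was lowest in HIP PEL_10d 3, at 1876, and highest in PEL_3d GH 1, at 9540. In Sham 2 and Sham 3 it was 2544 and 2580.

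Day 10 was tested directly against day 3. Without GH, 25 of 40 members were lower in PEL_10d than in PEL_3d and 1 was higher, where 12.2% of the 14807 genes tested were lower and 6.33% higher. The members' median was -0.48, against 0.01 over all genes. With GH, 26 were lower, against 10.8% of 14838 genes, and by edgeR 0 were higher, against 4.81%, with a median of -0.55, against 0.00. By edgeR 32 members had an unadjusted p under 0.05 with GH, and DESeq2 gave 29 lower and 1 higher, Gaa. Without GH, DESeq2 gave 27 lower and 3 higher, Atp6v0d2, Ctsk and Gaa, and the replicate block 29 lower and 2 higher, Atp6v0d2 and Ctsk. With GH the replicate block left 18 lower and by edgeR 0 higher, with 31 at an unadjusted p under 0.05. The largest falls without GH were those of Ctsc (-1.75 ± 0.16, adjusted p 1.01e-04), Gusb (-1.72 ± 0.16, adjusted p 1.08e-04) and Grn (-1.61 ± 0.16, adjusted p 1.64e-04), each lower in 3 of 3 PEL_10d libraries than in any PEL_3d library. By class, 9 of 12 proteases, 8 of 11 glycosidases and sulfatases, 4 of 7 lipid hydrolases and cofactors and 4 of 10 membrane proteins were lower, with medians of -0.98, -0.52, -0.44 and -0.19. Ctss (-0.21 ± 0.16, adjusted p 0.385) and Ctsk (0.74 ± 0.25, adjusted p 0.0675) were not called. Atp6v0d2 was higher at day 10 without GH (2.69 ± 0.64, adjusted p 0.0198), with 2 of 3 PEL_10d libraries above all PEL_3d libraries in FPKM, and not called with GH (0.13 ± 0.60, adjusted p 0.899).

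These calls rested in part on single libraries. The call of Atp6v0d2 without GH was lost without PEL_3d 1 (log2 2.67 ± 0.81, adjusted p 0.0719), PEL_3d 2 (log2 2.27 ± 0.67, adjusted p 0.0523) or PEL_10d 3 (log2 2.28 ± 0.68, adjusted p 0.0564). Without GH, leaving out PEL_3d 1, 2 or 3 left 22, 25 or 20 members called, and leaving out PEL_10d 1, 2 or 3 left 24, 22 or 24. The calls lost in any of these were those of Naglu, Lamp2, Arsb, Ppt1, Npc2, Ctsa and Atp6v0d2. With GH, leaving out PEL_3d GH 1, 2 or 3 left 16, 18 or 34 called, the last of them 32 lower and 2 higher where 16.4% of 14987 genes were lower and 13.2% higher, and leaving out PEL_10d GH 1, 2 or 3 left 19, 18 or 24. The calls lost in any of these were those of Psap, Man2b1, Lipa, Cd63, Ppt1, Scarb2, Tpp1, Gla, Asah1 and Arsb.

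What GH changed was tested by comparing groups with and without it. In sham mice, 1 of the 39 members tested was lower with GH, against 0.296% of the 14539 genes tested, and by edgeR 0 were higher, against 0.798%, with 5 members at an unadjusted p under 0.05 and 1 lower by DESeq2. This was Hexa (-0.30 ± 0.06, adjusted p 0.045), lower in 3 of 3 Sham GH libraries, and its adjusted p ran from 0.0637 to 0.21 when any of Sham 2, Sham 3, Sham GH 1, Sham GH 2 or Sham GH 3 was left out. With the library labelled Sham 1 included, 0 were called by edgeR and 2 had an unadjusted p under 0.05. At day 3, 0 of 40 members were called by edgeR, against 0.027% of 14798 genes in either direction, while 18 had an unadjusted p under 0.05 and DESeq2 called 1, Ctsd, which was higher. The members' median was 0.27, against 0.01 over all genes. Ctsd stood higher in every PEL_3d GH library than in any PEL_3d library, and its change was 0.56 ± 0.15 (adjusted p 0.499). Without PEL_3d GH 3, where 0.322% of 14913 genes were higher and 0.0536% lower, 5 members were called higher, Ctsd (0.70), Lipa (0.75), Hexa (0.52), Cd63 (0.44) and Atp6v0d2 (2.86), which were singled out after their values were seen. At day 10, 0 of 40 were called by edgeR, against 0% of 14763 genes, with 7 at an unadjusted p under 0.05, a median of 0.16 against 0.00, and 1 call by DESeq2, Man2b1 at 0.43 (adjusted p 0.0395, edgeR adjusted p 0.621). In the same 2 lesion comparisons, the 12 phagocyte genes described below had medians of 0.55 at day 3 and 0.29 at day 10. The 12 microglial genes had medians of 0.01 and 0.39. By edgeR 0 of either list were called, with 7 and 2 phagocyte genes and 5 and 7 microglial genes at an unadjusted p under 0.05. Their part in the members' values was not tested.

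Whether the lesion effect itself differed with GH was tested as an interaction. At day 3, by edgeR 0 of 40 members differed, where 0.00659% of the 15164 genes tested differed upward and 0.0396% downward, and 10 members had an unadjusted p under 0.05. The median difference was 0.26, against -0.01 over all genes. DESeq2 called 1 member, Hexa, at 0.71, and edgeR gave it 0.71 ± 0.14 (adjusted p 0.101). Without PEL_3d GH 3, where 1.1% of 15138 genes differed upward and 3.08% downward, 9 members were called higher, Psap, Ctsd, Npc2, Ctsl, Lipa, Hexa, Cd63, Tpp1 and Ctss. At day 10, 0 of 40 differed by edgeR, against 0% of 15116 genes in either direction, with 6 at an unadjusted p under 0.05, 0 by DESeq2, and a median of 0.17, against 0.01. With all 3 libraries labelled Sham, both counts were 0 by edgeR, with 10 and 7 members at an unadjusted p under 0.05.

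In the hippocampus at day 10, 0 of the 39 members tested were called by edgeR, against 0% of 14039 genes in either direction, and 9 had an unadjusted p under 0.05. The members' median was -0.10, against -0.00 over all genes. DESeq2 called 1, Npc2, which was lower by its estimate of -0.54 (adjusted p 0.0191, edgeR adjusted p 0.32). Npc2 was at 24.8, 22.6 and 23.8 FPKM in the libraries labelled HIP Sham 1, 2 and 3 and at 18.2, 14.1 and 15 in HIP PEL_10d, where all 3 libraries lay below all sham libraries. Without the library labelled HIP Sham 1, 1 member was higher, against 2.09% of 14191 genes, and 5 were lower, against 4.07%. Gaa was higher (0.34), and Lamp2 (-0.58), Npc2 (-0.58), Cd63 (-0.57), Ctsc (-0.78) and Tpp1 (-0.36) were lower. HIP Sham 2 and HIP Sham 3 also held more of the choroid plexus markers than HIP PEL_10d, at sums of 4359 and 5457 FPKM against 138, 40.7 and 802. The part of that tissue in these falls was not tested. Over the 8 choroid plexus genes the median log2 fold change with all 3 libraries labelled HIP Sham was -3.05, and by edgeR 0 were called, with 4 at an unadjusted p under 0.05. Of the 5 blood genes, 4 were tested and by edgeR 0 were called, with 3 at an unadjusted p under 0.05 and a median of 1.54, and their sums were 60.2, 37.1 and 21.6 FPKM in the libraries labelled HIP Sham 1, 2 and 3 and 49.4, 144 and 114 in HIP PEL_10d. Gaa was at 364, 77.3 and 82.8 FPKM in HIP Sham 1, 2 and 3 and at 101, 111 and 97.3 in HIP PEL_10d, above HIP Sham 2 and HIP Sham 3 and below the library labelled HIP Sham 1.

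The day 10 lesion effect was larger in the hypothalamus than in the hippocampus for 18 of 40 members by the test of that difference, against 1.82% of 15093 genes, and by edgeR smaller for 0, against 0.0663%. The median difference was 0.97, against 0.04 over all genes, 29 members had an unadjusted p under 0.05, and DESeq2 gave 25 larger and 1 smaller. The replicate block left 10 larger. Cd68 was at 3.85, 4.51 and 3.91 FPKM in the libraries labelled HIP Sham 1, 2 and 3 and at 7.96, 5.83 and 6.61 in HIP PEL_10d. Ctsc was at 4.64, 8.0 and 11.2 FPKM in HIP Sham and 6.58, 4.34 and 5.0 in HIP PEL_10d. Ctsd was at 218, 210.2 and 244 FPKM in HIP Sham and 206, 173 and 183 in HIP PEL_10d. Cd68 lay higher in every HIP PEL_10d library than in any library labelled HIP Sham, and Ctsd lower. Ctsc lay lower than in HIP Sham 2 and HIP Sham 3 and overlapped only through the library labelled HIP Sham 1, which had hypothalamic markers. No level of these 3 in HIP PEL_10d reached those of PEL_10d in the hypothalamus. The differences of effects were 2.92 ± 0.48 for Cd68 (adjusted p 0.026), 2.12 ± 0.42 for Ctsc (adjusted p 0.0434) and 2.06 ± 0.30 for Ctsd (adjusted p 0.0185). Those of Ctsz and Ctss were 2.08 ± 0.35 (adjusted p 0.0274) and 1.96 ± 0.30 (adjusted p 0.0185), and the other 13 ran from 0.91 for Man2b1 to 1.84 for Ctsh. By class the 18 were 8 proteases, 4 glycosidases, 2 lipid hydrolases or cofactors and 4 membrane proteins. The 8 choroid plexus genes went the same way, with a median difference of 3.09 and 8 above 0, of which Prlr was called (3.19 ± 0.48, adjusted p 0.0185). So did the 12 hypothalamic genes, which the library labelled HIP Sham 1 carries, with a median of 5.83 and 12 above 0, and by edgeR 0 were called, with 3 at an unadjusted p under 0.05. Ctsc, Cd63, Npc2 and Lamp2, which fell in the hippocampus without the library labelled HIP Sham 1, are among the 18, and the part of other tissue in these differences was not tested.

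This difference between tissues moved with the libraries used. With all 3 libraries labelled Sham, 8 members differed upward, against 0.624% of 14912 genes, and by edgeR 0 downward, against 0.00671%, with 23 at an unadjusted p under 0.05. Those 8 were Cd68, Ctsb, Hexa, Gusb, Laptm5, Ctsh, Grn and Ctss. Without the library labelled HIP Sham 1, 24 differed upward, against 6.52% of 15053 genes, and 1 downward, against 4.22%. Without Sham 2 or Sham 3 the count was 0 in each case by edgeR, with 26 and 25 members at an unadjusted p under 0.05. Leaving out HIP PEL_10d 1, 2 or 3 gave 11, 0 and 1, and leaving out HIP Sham 2 or 3 gave 6 and 5. Leaving out PEL_10d 1, 2 or 3 gave 1, 19 and 0. The median difference stayed between 0.84 and 1.05 in these fits, and at 0.81 with all 3 libraries labelled Sham. Shares of all genes are not given for the fits that leave out a library other than HIP Sham 1.

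Within a lesion group the members tended to be low or high together. PEL_3d 2 was the lowest of its group for 30 of 40 members and PEL_3d 3 the highest for 32. PEL_10d 2 was the lowest for 30, PEL_3d GH 3 for 34 and PEL_10d GH 1 for 34. Summed over 12 genes of phagocytes and activated macrophages, levels were 55.2 and 60.7 FPKM in Sham 2 and Sham 3, 1789.9, 1373 and 3122 in PEL_3d and 615, 233 and 499 in PEL_10d. With GH these genes summed to 50.2, 58.3 and 44.8 FPKM in Sham GH, 5279.9, 5094 and 2612 in PEL_3d GH and 318, 553 and 742 in PEL_10d GH. The lowest library by this sum was the same in each of the 4 lesion groups as the library lowest for most members. The part of these cells in the members' levels was not tested. In bulk tissue, fewer cells of a type and less RNA per cell cannot be told apart.

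All 12 phagocyte genes were higher in each of the 4 lesion comparisons. Spp1, the most abundant over all 24 libraries, averaged 704 FPKM, and the averages of genes in the other lists are also over all 24 libraries. Of 12 microglial genes, 12 were higher at day 3 and 9 at day 10, and 12 and 12 with GH, and C1qa, the most abundant, averaged 128 FPKM. The microglial sum was 164 and 167 FPKM in Sham 2 and Sham 3, 1066, 1026 and 1238 in PEL_3d and 568, 467 and 513 in PEL_10d. With GH it was 139, 162 and 137 FPKM in Sham GH, 1456, 1358 and 1135 in PEL_3d GH and 711, 867 and 712 in PEL_10d GH. It was highest at day 3 in both series, with no overlap of groups. It was 166, 167 and 168 FPKM in the libraries labelled HIP Sham 1, 2 and 3 and 242, 202 and 214 in HIP PEL_10d, and by edgeR 0 of the 12 genes were called, with 7 at an unadjusted p under 0.05. For the difference between tissues, 3 of 12 microglial and 4 of 12 phagocyte genes were called higher, where 1.82% of the 15093 genes tested were higher. Of 10 genes of blood leukocytes, 5 were tested, 4 were higher at day 3 and 2 at day 10, and S100a9, the most abundant, averaged 3.14 FPKM. The leukocyte sum was 6.48 and 2.62 FPKM in Sham 2 and Sham 3, 10.4, 20.5 and 28.6 in PEL_3d and 13.4, 11.6 and 5.95 in PEL_10d. With GH the leukocyte sum was 3.67, 4.91 and 3.63 FPKM in Sham GH, 10.6, 12.2 and 9.20 in PEL_3d GH and 35.2, 16.6 and 17.0 in PEL_10d GH, highest at day 10, and 2 of 4 genes tested were higher at day 3 and 3 of 4 at day 10. Its defining markers Ccr2, Ly6c2 and S100a8 had no count in 1, 4 and 5 libraries.

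Other cell types moved as well, and their part in the members' changes was not tested. Of 9 astrocyte genes, 5 were higher and 2 lower at day 3 and 3 higher at day 10, and Aldoc, the most abundant, averaged 423 FPKM. Their sum was 1105 and 1126 FPKM in Sham 2 and Sham 3, 1984, 1753 and 1851 in PEL_3d and 1515, 1472 and 1532 in PEL_10d. Of 7 endothelial genes, 5 and 4 were higher, and Ly6a, the most abundant, averaged 25.1 FPKM. The endothelial sum was 81.9 and 81.6 FPKM in Sham 2 and Sham 3, 147, 137 and 163 in PEL_3d and 109.9, 100 and 115 in PEL_10d. Both sums were highest at day 3. Of 9 neuronal genes, 7 were lower at day 3 and 2 at day 10, and Snap25, the most abundant, averaged 529 FPKM. The neuronal sum was 1925 and 1918 FPKM in Sham 2 and Sham 3, 1555, 1749 and 1500.1 in PEL_3d and 1606, 1792 and 1758 in PEL_10d. Of 8 oligodendrocyte genes, 1 was higher at day 3 and 4 at day 10, and Mbp, the most abundant, averaged 1685 FPKM. The oligodendrocyte sum was 2088 and 2894 FPKM in Sham 2 and Sham 3, 2379.7, 2364 and 2472 in PEL_3d and 3579, 3394 and 3571 in PEL_10d, so that it was highest at day 10. In mice given GH, 8 neuronal genes were lower at day 3 and 8 at day 10, and 3 and 8 oligodendrocyte genes were higher. Astrocyte genes with GH were 5 higher and 3 lower at day 3 and 3 higher and 1 lower at day 10, and endothelial genes 4 higher and 1 lower and 4 higher.

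Genes that mark regions and blood were followed as well, and their part was not tested either. For these counts and those of the cell types above, the share of all genes higher and lower was 22.2% and 18.2% at day 3. At day 10 it was 7.97% and 1.43%. With GH it was 26.9% and 25.2% at day 3 and 17.7% and 13.3% at day 10. Of 12 hypothalamic genes, 1 was higher and 7 lower at day 3 and 3 lower at day 10. Pmch, the most abundant of them, averaged 483 FPKM, and the defining markers Avp and Oxt had no count in 1 and 3 libraries. Their sum was 1411 and 1363 FPKM in Sham 2 and Sham 3, 1023, 1209.5 and 1068 in PEL_3d and 971, 1223 and 1051 in PEL_10d. Of 10 hippocampal genes, 7 were tested, 1 was higher and 3 lower at day 3, and 1 was higher at day 10. Of 8 choroid plexus genes, 3 were lower at day 3 and by edgeR 0 were called at day 10, with 4 at an unadjusted p under 0.05. Of 5 thalamic genes, 1 was higher at day 3 and 2 at day 10. Sums of the hippocampal genes were 53.8 and 51.9 FPKM in Sham 2 and Sham 3, 46.3, 40.6 and 43.9 in PEL_3d and 55.3, 51.9 and 41.5 in PEL_10d. Those of the choroid plexus genes were 30.7 and 31.3 FPKM, 19.1, 16 and 21.1 and 27.5, 27.5 and 32.8 in the same groups, and those of the thalamic genes 22.5 and 22.1, 29.1, 28.6 and 32.0 and 30.7, 27.3 and 33.9. By the mean over all 24 libraries of both tissues, the most abundant genes of these lists were Neurod6 at 32.0 FPKM, Ttr at 1029 and Prkcd at 10.7. In Sham 2 and Sham 3 the most abundant hippocampal gene was Wfs1. The Ttr mean takes in the library labelled Sham 1, whose choroid plexus genes summed to 14912 FPKM. Of 6 anterior pituitary genes, 1 of 4 tested was lower at day 3 and by edgeR 0 of 2 tested were called at day 10, with 0 at an unadjusted p under 0.05. Cga, the most abundant, averaged 11.0 FPKM, and the defining markers Cga, Gh and Prl had no count in 4, 5 and 6 libraries. Of 5 blood genes, by edgeR 0 of 4 tested were called at day 3 or day 10, with 0 and 1 at an unadjusted p under 0.05, and Hbb-bs, the most abundant, averaged 25.1 FPKM. The pituitary sums were 31.5 and 18.9 FPKM in Sham 2 and Sham 3, 10.3, 10.9 and 24.3 in PEL_3d and 33.4, 11.1 and 4.81 in PEL_10d, and the blood sums 30.1 and 17.8, 27.9, 15.5 and 21.1 and 26.3, 42.0 and 126. With GH, the 1 pituitary gene tested at day 3 was not called, and at day 10 Prl and Gh were higher of 3 tested, with sums of 15.5, 9.65 and 15 FPKM in Sham GH and 8.75, 25.5 and 74.1 in PEL_10d GH. The hypothalamic genes with GH were 1 higher and 5 lower at day 3 and 3 higher and 3 lower at day 10, and their sum of 6678 FPKM in PEL_10d GH 3 came mostly from Pomc, at 5479 FPKM. Of the choroid plexus genes with GH, 3 were lower at day 3 and 2 at day 10, of 8 hippocampal genes tested 3 and 2 were lower, and of the thalamic genes 1 was higher and 1 lower at day 3 and 2 higher and 1 lower at day 10. In mice given GH, 2 of 4 blood genes tested were higher at day 3 and all 5 at day 10, with sums of 21.8, 18 and 17.1 FPKM in Sham GH, 31.4, 17.5 and 57.7 in PEL_3d GH and 213, 66.2 and 44.9 in PEL_10d GH.

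The rest of the lysosomal pathway was followed through 97 genes in 6 lists. At day 3, 37 of 93 tested were higher and 4 lower (median 0.14), where 22.2% of all genes tested were higher and 18.2% lower, and at day 10, 22 were higher (median 0.10), where 7.97% were higher and 1.43% lower. With GH, 51 were higher and 13 lower at day 3, and 37 higher and 7 lower of 92 tested at day 10, where 26.9% and 25.2% of all genes were higher and lower at day 3 and 17.7% and 13.3% at day 10. Of 23 other hydrolases and cofactors, 14 were higher and 1 lower at day 3 and 9 higher at day 10. The largest changes at day 3 were those of the phosphatase Acp5 (6.02 ± 0.55, adjusted p 1.44e-05) and the nuclease Dnase2a (2.77 ± 0.23, adjusted p 8.19e-06), and the sulfatase Ids was lower (-0.28 ± 0.06, adjusted p 0.006). Gm2a, a cofactor that presents ganglioside to its hydrolase, was at 18.6 and 18.2 FPKM in Sham 2 and Sham 3, 30.6, 30.5 and 32.8 in PEL_3d and 28.1, 24.4 and 24.2 in PEL_10d. Its groups were separate. Gm2a rose by 0.75 ± 0.07 (adjusted p 1.98e-05) and 0.45 ± 0.08 (adjusted p 0.0101).

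Of 21 other membrane proteins and transporters, 9 of 20 tested were higher at day 3 and 7 at day 10. The largest were Gpnmb (7.85 ± 0.52, adjusted p 1.60e-06), the metal transporter Slc11a1 (3.88 ± 0.28, adjusted p 2.84e-06) and the ion channel Tpcn2 (1.76 ± 0.31, adjusted p 0.00126). Of 18 subunits of the proton pump, 4 were higher (against 22.2% of all genes) and 2 lower (against 18.2%) at day 3 and 2 higher (against 7.97%) at day 10, with day 3 changes of 1.82 for Tcirg1, 0.97 for Atp6v0e, 0.60 for Atp6v0a2, -0.36 for Atp6v1g2 and -0.21 for Atp6v1b2. Of 10 genes that sort enzymes to the lysosome, 2 were higher at day 3, Nagpa (1.36) and Igf2r (0.38), where 22.2% of all genes were higher. By edgeR 0 of the 10 were called at day 10, with 1 at an unadjusted p under 0.05, where 7.97% of all genes were higher and 1.43% lower. Of 18 genes of the MiT/TFE transcription factors and mTORC1 sensing, 6 were higher (against 22.2% of all genes) and 1 lower (against 18.2%) at day 3. At day 10, 2 of the 18 were higher (against 7.97%). Their day 3 changes were 1.01 for Fnip2, 0.97 for Tfeb and -0.39 for Rragd. The Tfec ratio at day 3, over a reference total of 3 counts, was 14.3 (95% exact counting interval 4.67 to 70.9). Of 7 endogenous cathepsin inhibitors, 4 were tested, and 2 were higher at each day. Cstb rose by 1.39 at day 3, and Cst7, over a reference total of 1 count, had a ratio of 166 at day 3 (29.5 to 6579) and 215 at day 10 (38.3 to 8510). Between GH and no GH in sham, at day 3 and at day 10, and in the hippocampus, 90, 93, 93 and 90 of the 97 genes were tested. By edgeR 0 were called in each, with 9, 15, 7 and 8 at an unadjusted p under 0.05. For the difference between tissues, 10 of 93 tested were higher, where 1.82% of the 15093 genes tested were higher.

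The promoter sequence of the members, which runs past the RefSeq start, was searched because most of them moved together. RefSeq promoters of build GRCm38.p6, each 300 bases long, were held for 34 members, and there was no entry for Asah1, Atp6v0d2, Ctsb, Ctsh, Galns and Npc1. The letters CACGTG, which read the same on both strands, occurred in 12 of 34 members (35.3%), against 7.15% of 32851 promoters of the same length and 8.09% of 27025 genes. The 12 were Arsa, Ctsa, Ctsd, Ctsf, Ctsl, Gaa, Gla, Glb1, Lamp1, Lgmn, Mcoln1 and Naglu. The longer TCACGTGA, also the same on both strands and containing CACGTG, occurred in 4 members (Ctsa, Ctsd, Gla and Mcoln1, 11.8%), against 0.974% of promoters and 1.12% of genes. By the day 3 call, CACGTG was present in 8 of 28 members that were higher, in 1 of 1 that was lower (Gaa) and in 3 of 5 that were not called (Arsa, Ctsf and Mcoln1). A match is a description of letters in this window only. Stretches are shown for Lamp1, which had 4 matches, and for Gla, Ctsd and Mcoln1, each with 2 in its promoter, of which the stretches of Ctsd and Mcoln1 show 1. The stretches of Ctsd and Mcoln1 lie before the RefSeq start but inside annotated exons of these genes, by 30 of 30 bases each, and 1 of the 2 matches in Ctsa lies after or across its start. Mcoln1 did not pass the threshold in any lesion comparison. Capitals mark CACGTG, and each runs 5′ to 3′ on the gene's strand at chr8:13159088-13159160 (plus) for Lamp1, chrX:134601182-134601244 (minus) for Gla, chr7:142387908-142387937 (minus) for Ctsd and chr8:3500462-3500491 (plus) for Mcoln1.
Lamp1: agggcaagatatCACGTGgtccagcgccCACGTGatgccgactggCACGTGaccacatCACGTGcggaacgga
Gla: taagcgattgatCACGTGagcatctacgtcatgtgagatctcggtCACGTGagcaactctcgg
Ctsd: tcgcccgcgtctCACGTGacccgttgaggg
Mcoln1: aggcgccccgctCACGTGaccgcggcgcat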

How the data were processed

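RNA of 24 samples was sequenced, and per the deposited table the authors gave for each gene an estimated count and an FPKM value, against build GRCm38 (mm10). By the study's methods the authors aligned reads with Hisat2 and counted them with featureCounts, and the step that made counts that are not whole is not stated. Of the 22274 genes, 22219 were matched to a symbol. The 8.22% of count values that were not whole, in 3410 genes, were rounded. Groups came from the titles, and no pairing of samples across groups is claimed. Each comparison was fitted with edgeR 4.0.16 (TMM, quasi-likelihood F test, filterByExpr with a minimum count of 10) in R 4.3.3 with limma 3.58.1, adjusted by Benjamini-Hochberg over all genes tested, with a threshold of 0.05. Fits with Sham used Sham 2 and Sham 3. The alternatives were DESeq2 1.42.0, its size factors, no filter, a mean count of 50 or more, a replicate block, 1 fit over all groups, all 3 libraries labelled Sham, and leaving out each library. A fit that leaves 1 library in a group assumes that it varies like the others. Tables and figures were made with Python 3.11.15, pandas 2.3.3, numpy 2.4.6, scipy 1.17.1 and matplotlib 3.10.9. The test was tested on simulated data.

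Members, classes, 6 pathway lists and 13 marker lists were chosen with earlier results of these data known. Members given library by library were, in each class and main comparison, up to 3 higher and 3 lower with the largest change and the most abundant member. Of each pathway list up to 3 higher and 3 lower genes are named, though not every such gene is printed, with Atp6v0d1 and Gm2a as partners. Of each marker list, the gene with the highest mean over all 24 libraries is named, with the defining markers without a count. Prlr, Pomc, Prl and Gh were named after their values were seen. Intervals pool the counts of a group's libraries and cover counting error only, so they leave out the spread between libraries. Duplicate reads cannot be told from independent molecules, which the intervals do not allow for.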

Additional observations from a re-analysis of the deposited data

Results flagged for a closer look

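The day 10 lesion effect differed between hypothalamus and hippocampus, by the test of that difference, for 18 of 40 members, all larger in the hypothalamus, where 1.82% of all genes tested differed upward and 0.0663% downward. Without HIP PEL_10d 2 or PEL_10d 3 the count was 0 by edgeR, with 27 and 28 members at an unadjusted p under 0.05. The share of all genes called in those fits is not given. The replicate block left 10 larger, and DESeq2 gave 25 larger and 1 smaller. Without the library labelled HIP Sham 1, 24 were larger and 1 smaller. The differences on the log2 scale, hypothalamus minus hippocampus, were 2.92 for Cd68, 2.12 for Ctsc, 2.08 for Ctsz, 2.06 for Ctsd, 1.96 for Ctss, 1.84 for Ctsh, 1.47 for Cd63, 1.43 for Laptm5 and 1.36 for Gusb. They were 1.24 for Npc2, 1.21 for Naglu, 1.17 for Lamp2, 1.14 for Grn, 1.09 for Hexa, 1.07 for Ctsl, 1.06 for Ctsb, 1.04 for Ctsa and 0.91 for Man2b1. Each rests on 3 libraries labelled HIP Sham, of which the library labelled HIP Sham 1 had hypothalamic markers. HIP Sham 2 and HIP Sham 3 held choroid plexus markers at sums of 4359 and 5457 FPKM, against 138, 40.7 and 802 in HIP PEL_10d, and the part of that tissue in the differences was not tested.

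Levels in the lesioned hypothalamus differed between day 10 and day 3, tested directly, for 26 members without GH (25 lower at day 10 and 1 higher) and 26 with GH (all lower). No sham library is labelled day 3 or day 10, so a change of the lesion effect cannot be told apart from a change with time. Over all genes tested, 12.2% were lower and 6.33% higher without GH, and 10.8% and 4.81% with GH. Without GH the member that was higher at day 10 by edgeR was Atp6v0d2, by 2.69 on the log2 scale. DESeq2 also called Ctsk and Gaa higher, and the replicate block Ctsk. With GH the replicate block left 18 members, all lower, while DESeq2 gave 29 lower and 1 higher. Also with GH, 1 fit over all hypothalamic groups gave 30 lower and 1 higher, and the fit without PEL_3d GH 3 gave 32 lower and 2 higher.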

How the results depend on the processing

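Over 200 calls of a member in a comparison, 0 changed sign under any alternative, and 140 stayed past the threshold under every alternative other than all 3 libraries labelled Sham. Calls lost were 1 with DESeq2, 5 with its size factors, 4 without a filter, 2 with a mean count of 50 or more, 3 of 182 with 1 fit over all hypothalamic groups, 36 of 81 with all 3 libraries labelled Sham, and 254 of 1227 with a library left out. The replicate block lost 17 calls and left 10 members in the difference between tissues. Libraries of different groups were compared in pairs by their deviations from the group mean. Among pairs with the same replicate number 7 of 77 correlated above 0.1 (median 0.004), and among the others 13 of 154 (median 0). These pairs include the library labelled HIP Sham 1, and with at most 3 libraries per group they cannot tell whether samples were paired.

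With all 3 libraries labelled Sham, 11 members were called for PEL_10d against Sham, 8 in the difference between tissues and 0 for Sham GH against Sham. With 1 fit over all hypothalamic groups, 0 were called for Sham GH against Sham. DESeq2 called 1 member each for PEL_3d GH against PEL_3d, PEL_10d GH against PEL_10d, the hippocampus and the GH interaction at day 3, where dropping the filter also gave 1. Apart from the library added, the cause was not tested.

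With a library left out, counts ranged from 11 to 29 for PEL_10d against Sham, 16 to 34 for PEL_10d GH against PEL_3d GH, 0 to 0 for Sham GH against Sham, 0 to 5 for PEL_3d GH against PEL_3d, 0 to 6 in the hippocampus, 0 to 25 in the difference between tissues and 0 to 9 for the GH interaction at day 3. Fewer samples were fitted there, and the share of all genes called is given for only some of these fits.

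Groups held 3 libraries, and 2 in Sham, so a member that was not called is not shown to be equal. At 15095267 to 17973494 counts per library, Atp6v0d2 in sham is limited by depth, and the size of its change is known only within a wide interval. Transcripts do not measure enzyme activity, and bulk tissue does not assign them to cells.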
